A study of Rattus norvegicus with 12 samples.

Results

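The genes described here encode the proteins of the cytosolic ribosome, measured in the left ventricle of fructose-fed rats. Members were all genes whose current rat symbol is Rpl or Rps with a number, with or without a letter suffix, together with Rpsa, Rplp0, Rplp1 and Rplp2. S6 kinase genes and symbols of uncharacterised loci or pseudogenes were left out, and each gene was represented by its brightest probe. Of 15715 genes with a probe on the array, 84 were members (51 of the large and 33 of the small subunit), and 83 of the 11211 genes tested were members, since Rpl27l2 was well above background on 0 of 12 arrays. RefSeq lists 228 such rat symbols, most of which have no probe that could be matched, Rps9 among them. Levels are log2 processed signal minus the array's 75th percentile, so that 0 is the signal of a spot at that percentile.

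All 12 arrays held left ventricle RNA of male Sprague-Dawley rats that ate a diet with 60% fructose for 8 weeks, a model of metabolic syndrome, and no group without fructose was analysed. The diet held either 0.64% NaCl (normal sodium) or less than 0.01% NaCl (low sodium), and each diet was given to 40 rats. In the last 4 weeks rats were either infused subcutaneously with angiotensin II (AngII), the pressor peptide of the renin-angiotensin system, at 200 ng per kg per min, or not infused. This gave 4 groups of 3 arrays each, named here by diet and infusion. The labels give no age and do not say how many rats stand behind each array, so p-values measure only the spread between these samples, which may be technical. In whole ventricle, fewer cells of a type and less RNA per cell cannot be told apart.

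A ribosome joins a small subunit, which reads the mRNA, to a large subunit, which forms the peptide bond, and each is a core of ribosomal RNA with many small proteins. Their mRNAs are among the most abundant in a cell and carry a terminal oligopyrimidine (TOP) tract, a stretch of C and U at the very 5′ end through which mTOR, a growth-controlling kinase, sets how strongly they are translated. Ribosome production is known to go up when heart muscle grows under pressure load or AngII, and much of that control acts on ribosomal RNA synthesis and on translation, which arrays of mRNA levels do not measure.

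Replicate numbers 1, 2 and 3 were 3 slides with 1 array of each group, and a group kept its place on all of them, so place and group cannot be told apart. The 75th percentile of the processed signal ran from 1399 to 1988 across the arrays, and 0 spots were saturated. All 7 ventricular cardiomyocyte markers (Myh6, Actc1, Tnnt2, Tnni3, Myl2, Myl3 and Ryr2) were well above background on every array, whereas the 5 skeletal muscle markers that could be tested summed to 0.223 to 0.401 in units of the 75th percentile, against 1000 to 1362 for the ventricular ones. The red cell markers with a tested probe (4 of 6 listed) summed to 129 to 166 with normal sodium, 250 to 288 with normal sodium and AngII, 160 to 226 with low sodium and 185 to 210 with low sodium and AngII. They therefore did not overlap between the infused and uninfused rats on normal sodium, nor between the diets under AngII, which are the comparisons in which the ribosomal protein genes differed most; their part in those results was not tested. The 6 fibroblast markers (all tested) summed to 47.2 to 53.8, 47.8 to 56.3, 39.6 to 40.1 and 41.7 to 46.8 in the same order, lower on low sodium without overlap in both infusion states. The 5 smooth muscle markers (all tested) summed to 16.8 to 19.6 on normal sodium and to 19.8 to 20.2 with AngII, without overlap. Under AngII the 6 endothelial markers summed to 23.8 to 25.5 in rats on normal and to 22.0 to 23.0 in rats on low sodium, again without overlap. All 6 macrophage markers were below 0 for low sodium under AngII (median -0.60), 4 of them at an unadjusted p under 0.05, with sums of 8.87 to 9.78 and 6.63 to 9.97. The part of these markers in the results was not tested.

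Ribosomal protein mRNAs were among the brightest on the arrays. The median member stood at 5.39 on the log2 scale, and 72 of 83 were above 3.76, the 95th percentile of all genes tested. Rpl41 (7.20 as the mean of 12 arrays; a very short protein at the interface of the subunits), Rplp0 (7.13; the base of the stalk), Rpl10, Rps29 and Rplp2 had the brightest probes. The dimmest were the like genes Rpl39l1 (-6.46) and Rps12l4 (-6.24), and Rpl15 (-2.64). Signals of different probes do not rank transcripts, so these positions describe the probes. Rpl39l1 was well above background on 6 arrays and Rps12l4 on 10, and the brightest Rpl31 probe had no value on the array of normal sodium replicate 1, where its spot was an outlier and was dropped from the fit. The median pooled SD within groups was 0.164 for members against 0.207 for all genes tested. By group the median SD over members was 0.248 for normal sodium, 0.0604 for normal sodium with AngII, 0.0953 for low sodium and 0.0856 when low sodium was joined by AngII, so the normal sodium arrays were the most spread.

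The start of a ribosomal protein transcript is where its regulation by mTOR is written. The sequences show how many members have a run of C and T near their annotated start. RefSeq (build GRCr8) gave 68 promoters for 67 of the 83 members. In the window from 20 bases before to 20 bases after the annotated start, the longest unbroken run of C and T touching the 10 bases on either side of the start had a median length of 10 bases, against 4 bases over all 33469 promoters of the table. A run of at least 7 bases was present in 48 member promoters (70.6%) and in 19.1% of all promoters. The pentamer CTTTC, which can lie inside such a run, was found on the gene's own strand of this window in 30 member promoters (44.1%) and in 4.97% of all. Its reverse complement GAAAG was found in 1 member promoter (1.47%) and in 5.07% of all. A match describes letters in this window and is not a measured start or site. The members whose levels are taken up below are shown 5′ to 3′ on their own strand, the run in capitals.
Rpl21: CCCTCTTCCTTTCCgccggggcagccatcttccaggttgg
Rpl38: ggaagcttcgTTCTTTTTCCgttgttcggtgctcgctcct
Rpl19: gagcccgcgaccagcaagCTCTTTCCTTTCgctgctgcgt
Rps28: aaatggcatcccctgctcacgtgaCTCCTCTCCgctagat
Rpl22: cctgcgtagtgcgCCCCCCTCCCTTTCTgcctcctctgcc
Rpl22l1: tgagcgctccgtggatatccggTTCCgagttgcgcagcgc
Rpl3: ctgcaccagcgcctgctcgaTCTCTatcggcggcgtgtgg
Rpl3l: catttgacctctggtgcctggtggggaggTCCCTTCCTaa
They lie at chr12:13386134-13386173 (minus strand) for Rpl21, chr10:100200415-100200454 for Rpl38, chr10:83519044-83519083 for Rpl19, chr7:15311314-15311353 (minus) for Rps28, chr5:168117941-168117980 for Rpl22, chr2:113683176-113683215 for Rpl22l1, chr7:113507971-113508010 (minus) for Rpl3 and chr10:14258426-14258465 for Rpl3l. The run was 14 bases long at Rpl21, 15 at Rpl22, 12 at Rpl19, 10 at Rpl38 and 9 at Rps28. It was 9 at Rpl3l, 5 at Rpl3 and 4 at the paralogue Rpl22l1. Runs of 3 were found at other members, Rpl11, Rpl41 and Rps12 among them, and a relation of run length to level was not tested. The run at Rpl21 ended 6 bases before the annotated start and that at Rpl3l 18 bases after it, so a run need not lie at the 5′ end of the transcript.

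The ribosomal protein genes varied together from array to array. Taking for each array the median over members of the level minus the gene's own mean, 69 of 83 members had a Pearson r above 0.5 with that median over the 12 arrays, whereas 9.10% of all genes tested did; every member is itself part of the median, and all members of an array share its scaling, slide and RNA. Without the 2 arrays farthest from the middle (replicate 2 of normal sodium and of normal sodium with AngII) 47 members and 8.63% of genes had such an r. The count of members was 59 after normexp background correction, 44 after quantile normalization and 32 of 82 in the authors' value table. It therefore depended on how the arrays were processed. The share of all genes with such an r was not computed for these settings, so the excess of members over all genes there is not known. The like genes Rpl39l1 (r = -0.20) and Rps12l4 (-0.16), both near background, and Rpl3 (-0.16), well above it on every array, did not follow the rest.

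The arrays with the highest and the most scattered member levels both belonged to the normal sodium group. In that group the member median was 0.02, 0.26 and -0.12 for replicates 1 to 3, and 81 of 83 members lay above their own mean on the array of replicate 2. It was -0.06, -0.15 and -0.07 with normal sodium and AngII, 0.05, 0.05 and -0.09 with low sodium, and 0.09, 0.07 and -0.03 with low sodium and AngII. Thus all 3 infused arrays on normal sodium were low, the uninfused normal sodium arrays ran from -0.12 to 0.26, and the slide of replicate 3 gave a negative median in every group. The last point depended on the scaling. Low sodium with AngII replicate 3 had a median of 0.08 after quantile normalization and 0.06 in the authors' value table. Normal sodium replicate 3 had -0.02 and -0.01 there. The median local background, in scanner units, was 20 to 21 on the slide of replicate 3 and 24 to 29.5 on the other slides; its part was not tested.

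The array of normal sodium replicate 1 stood apart in another way. Its member median was near 0, but the interquartile range of the member deviations was 0.444, against 0.0765 to 0.217 on the other arrays, and 13 members lay more than 0.5 from their own mean, against 1 or 2 elsewhere. Among the high ones were Rpl41, Rpl36a, Rps23 and Rpl39l1; low were Rps18, Rpl7a, Rpl22l1, Rps3, Rpl17l5, Rpl27, Rps13 and Rpl32. Probes of the same gene also parted on it: over the 48 members with several tested probes the median gap between a gene's probes was 0.402 on this array and 0.0494 to 0.157 on the others. The scatter was of the whole array: 21.5% of all genes tested lay more than 0.5 from their own mean on it, against 5.83% to 11.7% on the others, and over 1889 genes with several probes the median gap was 0.338 against 0.111 to 0.215. Values of single members in comparisons with normal sodium are given below with and without this array where leaving it out moves them by over 1.5 times.

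**Figure D1:**
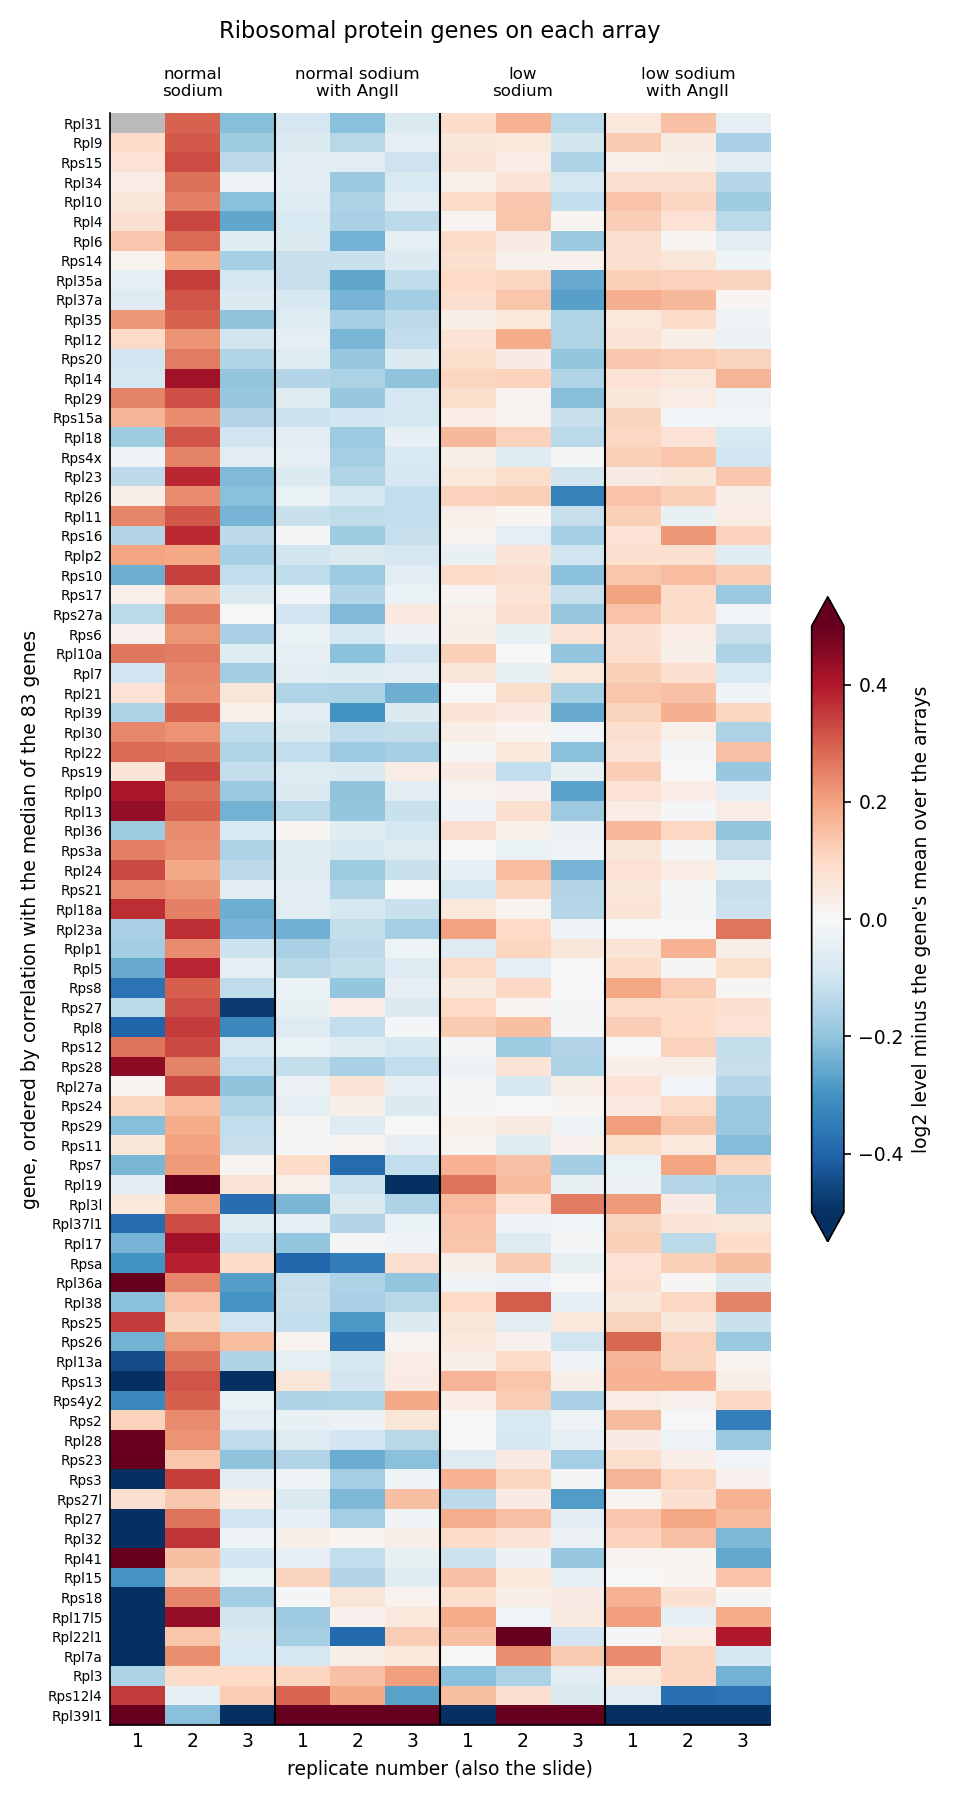
Level of 82 of the 83 members (rows, ordered by correlation with the member median) on the 12 arrays (columns, by group and replicate number, which is also the slide), as log2 level minus the gene's mean; colours saturate at 0.5 either way and grey marks the dropped Rpl31 value. The column of normal sodium replicate 2 is red for nearly all members, that of replicate 1 holds both extremes, and the 3 columns of normal sodium with AngII are mostly blue.

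**Figure D2:**
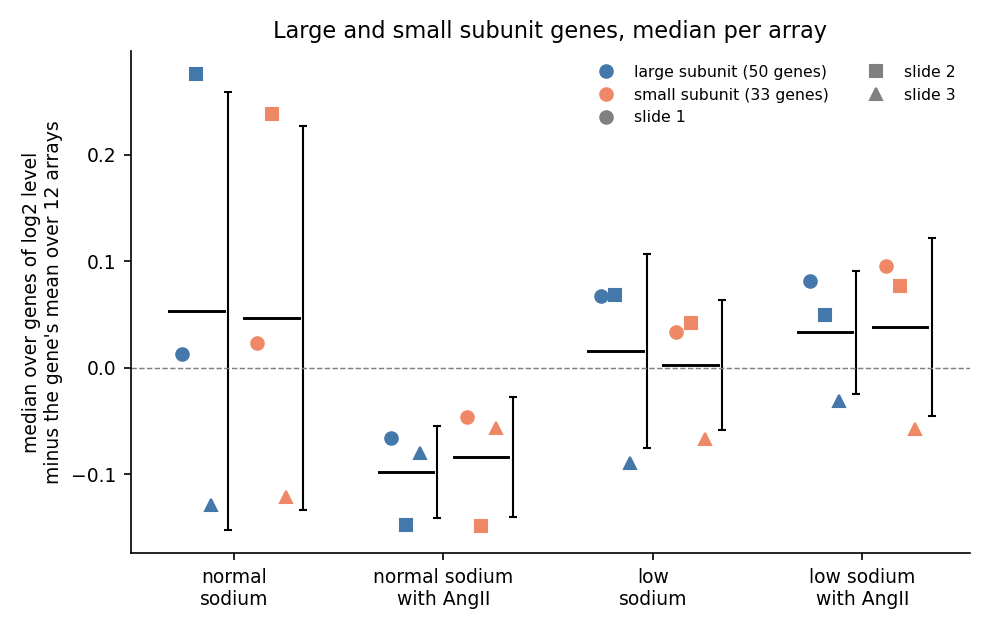
Median over the large (50) and small (33) subunit members of the log2 level minus the gene's mean, for each array; symbols mark slides, bars the group mean and error bars the SD of 3 arrays. Both subunits are highest on normal sodium replicate 2, at 0.28 and 0.24, and lowest on replicate 2 of normal sodium with AngII. The order of some arrays in between differs.

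On normal sodium, the members were lower with AngII than without it, by a median of -0.13 on the log2 scale, while all genes tested had a median difference of 0.02. Below 0 were 68 of 83 members, where 47.3% of all genes lay below 0. Both subunits were alike (medians -0.16 and -0.12). limma called 0 members, as it called 0 of 20020 probes at an adjusted p under 0.05 (0.0%), and at an unadjusted p under 0.05 it had 2 members lower against 3.53% of all genes, and 0 higher against 4.42%. These counts depended on the arrays and settings: 27 were lower without normal sodium replicate 3 (5.57% of genes), 10 after normexp background correction (4.78%) and 7 with the slide as a block (3.56%), each with 0 higher (6.8%, 4.19% and 5.27% of genes). Without normal sodium replicate 2, 5 were higher (4.62%) and 0 lower (4.5%). The size rested on 1 array: without normal sodium replicate 2 the median was -0.03, with 47 of 83 below 0, and without the whole slide of replicate 2 it was -0.01. Slide by slide it was -0.07, -0.41 and 0.08, so slide 3 went the other way with this scaling, with 61 of 83 above 0. After quantile normalization the member median on slide 3 was -0.02 without and -0.06 with AngII. Without normal sodium replicate 3 the median was -0.21.

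Rpl21, a large subunit protein, had the smallest p among the lower members. It stood at 6.54, 6.70 and 6.53 on normal sodium and at 6.32, 6.31 and 6.22 with AngII. Every infused array was below every uninfused one, a difference of -0.31 ± 0.11 (limma standard error, n = 3 a group; adjusted p = 0.669). The value was -0.02 after normexp background correction and -0.01 in the authors' value table, and the gene's other probes gave -0.13 and 0.05, so this difference depended on the probe and on the background correction.

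Rps28, a small subunit protein beside the mRNA exit, stood at 6.19, 5.99 and 5.62 and with AngII at 5.63, 5.58 and 5.62. The uninfused arrays were spread over more than the whole difference, and the lowest of them was level with the infused ones. The difference was -0.33 ± 0.14 (limma adjusted p = 0.669), and -0.20 without normal sodium replicate 1. Rps23, which lines the decoding centre, gave -0.43 ± 0.20 (limma adjusted p = 0.669), but 7.20 on normal sodium replicate 1 against 6.20 to 6.59 on the 11 other arrays made most of it: without that array it was -0.17, and the other Rps23 probes gave 0.09 and 0.23. Rpl22 (5.003, 4.997 and 4.57, with AngII 4.60, 4.54 and 4.55) was 0.29 lower on the log2 scale (-0.29 ± 0.13, limma adjusted p = 0.669).

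Groups did not overlap for 4 lower members (Rpl37a, Rpl21, Rpl35a and Rpl34), where 6.62% of all genes were lower without overlap, and for 1 higher member, Rpl3, where 7.62% were. Among the other 15 members Rps13, a small subunit protein, was highest of those well above background at 0.25 ± 0.20 (limma adjusted p = 0.756). It stood at 4.44, 5.29 and 4.46 without and at 5.03, 4.88 and 5.01 with AngII, within the range of the uninfused arrays, and gave 0.10 without normal sodium replicate 1. Rpl3, which reaches into the peptidyl transferase centre, gave 0.14 ± 0.12 (limma adjusted p = 0.776), and 0.06 without that array.

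On low sodium, AngII left the members close to where they were, with a median difference of 0.03 against -0.01 for all genes; 59 of 83 were above 0, where 45.7% of all genes were. limma called 0 members (0.0% of probes), and at an unadjusted p under 0.05 it had 0 higher and 0 lower, against 0.928% and 0.856% of all genes. The slides gave 0.05, 0.02 and 0.04. The sign of so small a median was not stable: it was -0.005 when low sodium replicate 3 was dropped and -0.001 when the first array of low sodium with AngII was. It was 0.057 without low sodium replicate 1, 0.061 when replicate 2 of that group was dropped, and 0.068 without the third array of low sodium with AngII. Without overlap, 5 members were higher (Rps10, Rpl39, Rpl35a, Rps16 and Rps20; 3.46% of all genes) and 0 were lower (3.34% of all genes). Rps27l, a paralogue of Rps27 known as a target of the stress factor p53, was at 1.08, 1.25 and 0.93 without and at 1.22, 1.28 and 1.38 with AngII, a difference of 0.21 ± 0.12 (limma adjusted p = 1). Rps16, whose tail touches the tRNA in the small subunit, gave 0.20 ± 0.14, but -1.03 by its dimmer probe, and Rpl39, a small protein of the exit tunnel, gave 0.18 ± 0.14 (limma adjusted p = 1 for both). Lower were Rpl19 at -0.24 ± 0.18 and, near background, Rps12l4 at -0.32 ± 0.17 (limma adjusted p = 1 for both).

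Without AngII, the diets did not set the members apart in a stable direction. The median difference, low minus normal sodium, was -0.05 against -0.02 for all genes, with 52 of 83 members below 0 where 53.1% of all genes were. limma called 0 members (0.0% of probes), and 1, Rps12, was lower at an unadjusted p under 0.05 against 4.68% of genes, while 0 were higher against 3.1%. Without normal sodium replicate 3, 17 were lower (4.92% of genes) and 0 higher (4.26%), and without normal sodium replicate 2, 13 were higher (5.01%) and 0 lower (7.14%). By the authors' values 7 were lower (4.58%) and 1 higher (3.9%). The median turned to 0.05 when normal sodium replicate 2 was left out and to 0.003 for low sodium replicate 3, and it was -0.13 when normal sodium replicate 3 was left out, and the slides gave 0.05, -0.22 and 0.04. No member was separated without overlap, against 5.08% of genes higher and 6.71% lower. Rps12, a protein of the small subunit's head, stood at 6.66, 6.72 and 6.30 on normal and 6.38, 6.21 and 6.24 on low sodium, a difference of -0.28 ± 0.13 (limma adjusted p = 0.707). The other Rps12 probe gave -0.11. Rpl41 was at -0.36 ± 0.18 (limma adjusted p = 0.729), with 7.89 on normal sodium replicate 1 against 6.94 to 7.35 on all other arrays. Higher on low sodium were Rps13 (0.36 ± 0.20), Rpl22l1 (0.44 ± 0.25) and Rpl38 (0.24 ± 0.14), with limma adjusted p-values of 0.745, 0.747 and 0.747; Rps13 and Rpl22l1 had their lowest value of all on normal sodium replicate 1. Without that array Rpl41 was at -0.14, Rps13 at 0.21 and Rpl22l1 at 0.19.

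Under AngII, the members were higher on low than on normal sodium, and this was the steadiest difference among the comparisons of groups. The median was 0.14 against -0.05 for all genes tested. Above 0 were 75 of 83 members, where 42.6% of all genes were, and the large and small subunits again moved alike (0.14 and 0.12). limma called 0 members (0.0% of probes); at an unadjusted p under 0.05, 1 member was higher (4.33% of genes) and 1 lower (Rpl39l1; 8.05%), and the median standard error of a member's difference was 0.14. With array weights 9 were higher (7.5% of genes) and 2 lower (13.02%), and without normal sodium replicate 2, whose spread enters the fit, 7 were higher (4.50%) and 1 lower (8.27%). The 2 groups did not overlap for 35 higher members, 42.2% of the 83, where 11.1% of all genes were higher without overlap, and for 2 lower ones (Rpl3 and Rpl39l1; 13.3% of genes). Rpl39l1 entered the test only through normal sodium with AngII, the group where it was high, so its differences from that group are a description. Members share their arrays, so these 35 are not separate observations.

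The slides gave 0.17, 0.20 and 0.02 for this comparison, with 76 of 82, 76 of 83 and 46 of 83 members above 0. The all-gene medians by slide were 0.02, -0.05 and -0.11, so members lay above the all-gene median on each. After quantile normalization the member medians by slide were -0.01, -0.10 and -0.06 for normal sodium with AngII. For low sodium with AngII they were 0.02, 0.03 and 0.08, so the small value of the third slide depended on the scaling. Leaving out any 1 array kept the median between 0.11 and 0.17, and leaving out a slide between 0.09 and 0.18. It was 0.10 after quantile normalization and 0.09 in the authors' value table, with 71 of 83 and 72 of 82 members above 0, where the all-gene medians were 0.003 and 0.02. Of the 48 members with several tested probes, 39 had all their probes above 0 and 0 had all below. The group means compared here do not include the normal sodium arrays that stood apart.

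Among single members, Rpl21 was at 6.32, 6.31 and 6.22 on normal sodium with AngII and at 6.604, 6.61 and 6.45 on low sodium with AngII, 0.27 ± 0.11 higher (limma adjusted p = 0.397). Its value kept between 0.24 and 0.29 under normexp, quantile normalization and the authors' values, and its other probes gave 0.18 and 0.12. Rpl35a, a large subunit protein, stood at 5.97, 5.82 and 5.96 and at 6.20, 6.20 and 6.19. Its low sodium arrays were level with each other and above all normal sodium ones, a difference of 0.28 ± 0.14 (limma adjusted p = 0.490), and its other probes gave 0.24 and 0.28. Rpl38, a large subunit protein known for its part in the translation of Hox mRNAs, was 0.27 ± 0.14 higher (limma adjusted p = 0.489), and Rpsa, the small subunit protein also called the laminin receptor, 0.33 ± 0.18 (limma adjusted p = 0.515). Lower were Rpl3 (-0.18 ± 0.12, limma adjusted p = 0.609), Rps12l4 (-0.34 ± 0.17, limma adjusted p = 0.494) and Rpl39l1. Rpl39l1 was well above background on all 3 arrays of normal sodium with AngII (-5.12, -4.29 and -5.44) and on none of low sodium with AngII (group means -4.95 and -8.04). With the dimmest signal well above background on each array taken as the floor, the fold between these groups was at least 3.65. It was tested only because it was high on normal sodium with AngII, so this fold is a description that rests on the chosen floor. On normal sodium it was well above background on 1 array and on low sodium on 2.

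**Figure D3:**
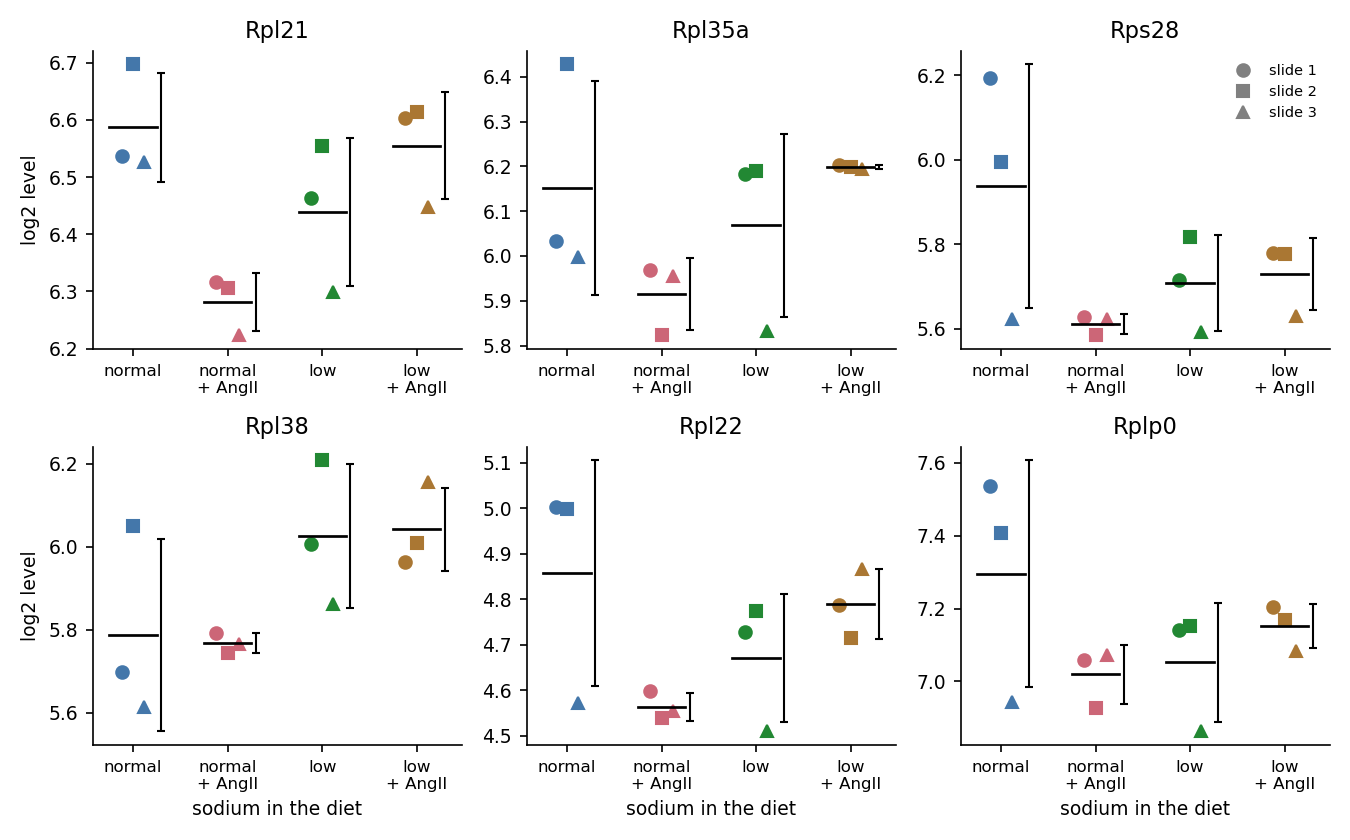
Log2 level of 6 members on each array by group; symbols mark slides, bars the mean and error bars the SD of 3 arrays. In all 6 genes the 3 arrays of low sodium with AngII lie above those of normal sodium with AngII, in Rps28 by 5.631 against 5.628 at the nearest. The 6 genes are among the 35 of 83 members that were higher without overlap in this comparison, so they do not stand for all members.

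The interaction, the AngII difference in low sodium rats less that in normal sodium rats, had a member median of 0.18 against -0.03 for all genes; 67 of 83 members were above 0, where 45.4% of genes were. It was called for 0 members by limma (0.0% of probes) and rested on the same array: it was 0.06 without normal sodium replicate 2 and 0.02 without the slide of replicate 2 (0.12, 0.39 and 0.003 by slide). At an unadjusted p under 0.05, 1 member was higher (Rpl21; 2.44% of genes) and 1 lower (Rpl39l1, which had to be high in 1 of the groups to be tested; 3.08%). Without normal sodium replicate 3, 20 were higher (3.58% of genes) and 0 lower (4.51%), and without the slide of replicate 3, 11 were higher (2.30%). The interaction shares arrays with the comparisons above and adds no independent support. Rpl21 (0.42 ± 0.15), Rpl22 (0.41 ± 0.19) and Rps27l (0.34 ± 0.18) had the smallest p among positive values, each at a limma adjusted p of 0.857, though Rpl21 gave 0.09 after normexp and 0.12 in the authors' value table. The negative values with the smallest p were those of Rps13 (-0.23 ± 0.28, limma adjusted p = 0.917; -0.09 without normal sodium replicate 1) and of the dim like genes Rpl39l1 and Rps12l4.

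Averaged over the diets, AngII gave a member median of -0.05 (62 of 83 below 0, where 50.4% of genes were), and 0.005 without normal sodium replicate 2. It was -0.02 after quantile normalization (52 of 83 below 0) and -0.01 in the authors' value table (44 of 82). The all-gene medians there were -0.008 and -0.007, close to those of the members. Rpl19, which forms a bridge between the subunits, was 0.31 ± 0.12 lower on the log2 scale (a difference of -0.31, limma adjusted p = 1.000), but its second probe gave 0.08. Averaged over infusion, low sodium gave 0.05 (57 of 83 above 0, where 44.0% of genes were), and 0.005 without normal sodium replicate 3. Quantile normalization gave 0.02 (49 of 83 above 0, where 5555 of 11211 genes were). The authors' values gave 0.02 (45 of 82, where 5954 of 11191 genes were). The all-gene medians were -0.002 and 0.02, so in the authors' values the members did not stand apart from all genes. limma called 0 members in either average (0.0% of probes in each). At an unadjusted p under 0.05, AngII had 0 members higher (1.81% of genes) and 1 lower (Rpl19; 1.2%), and low sodium 1 higher (Rpl38; 4.49%) and 0 lower (9.27%). Without normal sodium replicate 3, AngII had 13 lower (2.35% of genes), and without normal sodium replicate 2, low sodium had 19 higher (6.45%). Rpl38 had the smallest p, with 5.70, 6.05 and 5.61 on normal sodium, 5.79, 5.74 and 5.77 with AngII, 6.01, 6.21 and 5.86 on low sodium, and 5.96, 6.01 and 6.16 with both. The low sodium arrays were higher in both infusion states, though they overlapped without AngII, by 0.26 ± 0.10 (limma adjusted p = 0.311), and all 4 of its probes were above 0 (0.21, 0.26, 0.22 and 0.34). Over the 4 groups together, limma's F test called 0 members (0.0% of probes) and the smallest member p was 0.0621, for Rpl21, while 8.78% of genes had an unadjusted p under 0.05.

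By place in the ribosome the members did not part. The 4 stalk proteins (Rplp0, Rplp1, Rplp2 and Rpl12), which bring elongation factors to the ribosome, were all below 0 for AngII on normal sodium (median -0.18) and all above 0 for low sodium under AngII (0.14). Rplp0 stood at 7.54, 7.41 and 6.94 on normal sodium, 7.06, 6.93 and 7.07 with AngII, 7.14, 7.15 and 6.86 on low sodium, and 7.20, 7.17 and 7.08 with both. Its uninfused normal sodium arrays held both the highest and nearly the lowest value, and its differences were -0.28 ± 0.15 for AngII on normal sodium (limma adjusted p = 0.676; -0.16 without normal sodium replicate 1) and 0.13 ± 0.15 for low sodium under AngII (limma adjusted p = 0.780). The other Rplp0 probe gave -0.08 and 0.05, so the size of both differences depended on the probe. Rplp1 gave -0.09 and 0.20, and Rplp2 -0.16 and 0.11, in the same comparisons. Without normal sodium replicate 1 the first value was -0.17 for Rplp1 and -0.10 for Rplp2; without normal sodium replicate 2 it turned to 0.03 for Rplp1, and after normexp to 0.01 for Rplp2.

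The 8 proteins around the exit tunnel (Rpl4, Rpl17, Rpl19, Rpl23a, Rpl26, Rpl31, Rpl35 and Rpl39), through which the new chain leaves, were also all below 0 (median -0.17) and all above 0 (0.17). Rpl5 and Rpl11, which carry the 5S RNA and, when unassembled, bind Mdm2, gave -0.14 and -0.23 for AngII on normal sodium and 0.17 and 0.16 for low sodium under AngII. The first of these, for Rpl5, was -0.28 without normal sodium replicate 1 and 0.04 without replicate 2 of that group. The 4 proteins at the mRNA exit (Rps3a, Rps14, Rps26 and Rps28) had medians of -0.17 and 0.13, and those of the mRNA entry and decoding centre (Rps2, Rps3 and Rps23) of -0.10 and 0.17, with Rps2 at -0.06 in the latter, and at 0.07 as the mean of its probes. These places were assigned after the values were known and are a description.

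Paralogues, which replace a standard protein in some ribosomes, were compared with their parents within each array, since a difference between 2 probes of an array is free of its scaling. Only 3 of 8 pairs looked for had both genes tested, and each was tested for both factors, 6 tests in all. Rpl3l takes the place of Rpl3 in striated muscle. Rpl3 stood at 3.71, 3.95 and 3.96 on normal sodium, 3.97, 4.01 and 4.07 with AngII, 3.65, 3.71 and 3.81 on low sodium, and 3.92, 3.97 and 3.63 with both. Rpl3l stood at 4.89, 5.05 and 4.46, then 4.61, 4.77 and 4.68, then 4.99, 4.91 and 5.10, then 5.05, 4.88 and 4.68. In group means, Rpl3 was lowest on low sodium without AngII, where Rpl3l was highest.

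Rpl3l minus Rpl3 was 1.18, 1.095 and 0.50 on normal sodium, 0.64, 0.76 and 0.61 with AngII, 1.34, 1.21 and 1.29 on low sodium, and 1.14, 0.91 and 1.05 with both. All low sodium arrays were above all normal sodium arrays of the same infusion state, and low sodium was higher on each of the 3 slides both without AngII (by 0.16, 0.11 and 0.79) and with it (0.50, 0.15 and 0.44). The mean difference was 0.36 (group means 0.92, 0.67, 1.28 and 1.03; SD 0.373, 0.0772, 0.0688 and 0.113, n = 3 each), with p = 0.005 in a two-sided exact permutation test within infusion states, the smallest its 400 arrangements allow, and 0.03 after Benjamini-Hochberg adjustment over the 6 tests. The unequal change depended on the values used: it was 0.27 after normexp (exact permutation p = 0.14) and 0.30 in the authors' value table (exact permutation p = 0.065). Without any 1 replicate number it was 0.23 to 0.47, with an exact permutation p of 0.0556, the smallest that 2 arrays a group allow. AngII gave -0.25 (exact permutation p = 0.055, adjusted 0.165), and -0.36 without normal sodium replicate 3 (unadjusted exact permutation p = 0.005). Neither gene alone was called by limma in any comparison.

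For Rpl22l1 minus Rpl22, a pair in which each protein restrains the other's expression in other tissues, low sodium gave 0.34 (exact permutation p = 0.105, adjusted 0.21; 0.41 and an unadjusted 0.03 without replicate 3 of normal sodium with AngII), with -1.94 on normal sodium replicate 1 against -1.15 to -0.39 on the other 11 arrays, and the dimmer Rpl22l1 probe gave -0.18 where the brighter gave 0.36 for low sodium. Rps27l minus Rps27 gave -0.16 for low sodium (exact permutation p = 0.295, adjusted 0.443). The values for AngII were 0.09 and -0.02, with exact permutation p-values of 0.755 and 0.89 (adjusted 0.89 for both). A p that misses the threshold does not show that a pair moves alike.

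**Figure D4:**
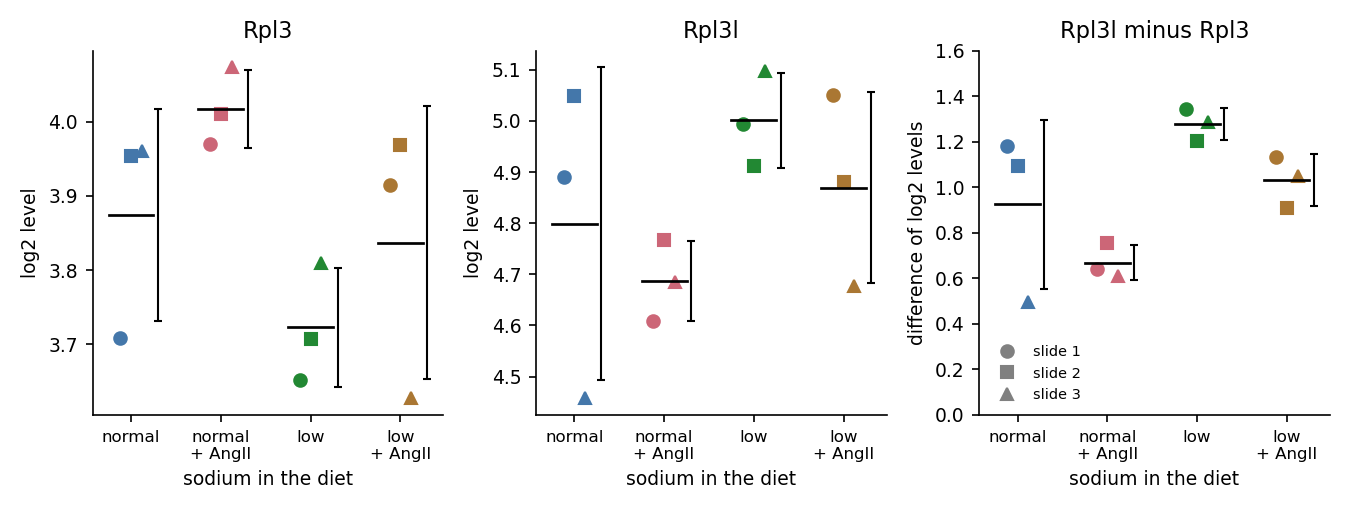
Log2 level of Rpl3 and of Rpl3l, and their difference, on each array; symbols mark slides, bars the mean and error bars the SD of 3 arrays. The difference lies between 0.91 and 1.34 on the low sodium arrays and between 0.50 and 1.18 on the normal sodium arrays, without overlap at the same infusion state.

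Other genes of ribosome making and translation were read from lists written from textbook knowledge, and limma called 0 of their members in any comparison. Elongation factors and other TOP mRNAs, 19 tested, had medians of -0.13 (16 below 0) for AngII on normal sodium and -0.02 (10 below 0) for low sodium under AngII. Among them Eef1b2, an exchange factor of elongation factor 1, was at -0.31 ± 0.12 and Eef1a1, its main subunit, at 0.45 ± 0.19 for AngII on normal sodium (limma adjusted p = 0.669 for both).

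Of the 32 tested ribosome biogenesis genes, which process ribosomal RNA in the nucleolus, 23 were below 0 for AngII on normal sodium (median -0.07) and 26 for low sodium without AngII (-0.12); under AngII the diets gave -0.04, with 18 below 0. Rrs1, needed to build the large subunit, was 0.37 lower in the uninfused diet comparison (-0.37 ± 0.11, limma adjusted p = 0.577) and gave -0.24 ± 0.11 under AngII (limma adjusted p = 0.441). The RNA polymerase I genes (13 tested), which transcribe ribosomal RNA, had medians of -0.08 and -0.09 in the AngII comparison on normal sodium and the diet comparison under AngII.

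The 17 tested genes of mTOR signalling to translation gave 0.07 and -0.07 in these comparisons. For low sodium without AngII their median was 0.008, with 9 above 0 and 8 below, so the list did not move in 1 direction. Ddit4, an inhibitor of mTOR complex 1, and Eif4ebp2, a repressor of cap-dependent translation, were higher on low sodium without AngII, at 0.83 ± 0.26 (limma adjusted p = 0.615) and 0.48 ± 0.16 (limma adjusted p = 0.624). Of the 9 tested genes of the ribosomal stress response through p53, 6 were below 0 for low sodium in both infusion states (medians -0.17 and -0.15), among them the cell death genes Bax at -0.37 ± 0.11 without AngII (limma adjusted p = 0.615) and Bbc3 at -0.46 ± 0.16 with it (limma adjusted p = 0.364).

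The genes outside the members whose levels followed the member median most closely were Rpl37al3 (r = 0.945 over 12 arrays), Tuba4a (0.909), Gal (0.904), Eif3f (0.903) and Tpt1 (0.896), out of 11105 compared. Rpl37al3 carries a suffix that the rule does not take in and is itself listed as a like gene of a ribosomal protein. Tuba4a encodes a tubulin, Gal the neuropeptide galanin, Eif3f a subunit of an initiation factor, and Tpt1 a protein with a known TOP mRNA. Without the 2 arrays farthest from the middle the values were 0.922, 0.780, 0.770, 0.735 and 0.794. These genes were picked for their r, so it is a description. Tuba4a differed by more than the members, with -0.52 for AngII on normal sodium and 0.53 for low sodium under AngII, and Gal, at -1.73 to -6.68, was far below the 75th percentile on every array. Of the 100 genes with the highest r, members included, 31 were members.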

How the data were processed

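Left ventricle RNA was labelled with Cy3 and hybridised to 1-colour Agilent arrays, 12 in all, 3 for each of 4 groups taken from the sample titles. The deposited scanner intensity files hold processed signals that Agilent Feature Extraction had background-subtracted; their headers name version 10.7.3.1 and the submitters' processing notes 11.0.1.1. The notes also name limma and R for the authors' deposited value table on a log2 scale (column medians 8.81 to 8.95), whose normalization is not given in the sources used here; it served as an alternative.

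Outlier spots were dropped, log2 processed signal was centred on each array's 75th percentile over 42877 non-control spots, and spots of a probe were averaged. Probes were named through RefSeq accessions (18758 of 30367 with 1 symbol). The 20020 probes well above background on all 3 arrays of a group entered the test, a limma fit (version 3.58.1, R 4.3.3) with 1 mean per group, 7 contrasts and two-sided moderated tests ( Benjamini-Hochberg over all probes, adjusted p under 0.05). The fit was tested on simulated data. Given in full were the 3 members with the smallest p in each direction of a contrast, Rpsa, Rplp0 to Rplp2, and paralogues; up to 2 genes of a list by smallest p; and the 5 genes most like the member median. Members, lists and tests were chosen with earlier results of these data known, the places in the ribosome after the values were seen. The number of arrays limits the precision.

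The labels number replicates 1 to 3 in every group, and the headers show that the number is the slide. Deviations of same-numbered arrays correlated above 0.1 in 17 of 18 pairs (0.333 to 0.432, 0.119 to 0.307 and 0.0469 to 0.229 for numbers 1 to 3), against a median of -0.181 for arrays differing in number and group, so 1 pair was not above 0.1 and the rule that all pairs be above it was not met. Same-numbered arrays do share a slide, so values with the slide as a block are given beside the fit, which has none. Alternatives were normexp, quantile normalization, the authors' table, no filter on dim probes, the mean of a gene's probes, array weights, the slide block, and leaving out each array or replicate number. RefSeq's promoter table held no entry for 16 members, and protein sequences were not used here. Results for some single genes and 1 gene list are not reported here.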

Additional observations from a re-analysis of the deposited data

Results flagged for a closer look

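Rpl35a was the only member whose AngII groups did not overlap on either diet and lay in opposite order. The share of all genes that did so is not given here. Taken 1 diet at a time, 6.62% of genes were lower without overlap on normal sodium and 3.46% were higher on low sodium. All 3 infused arrays were below all 3 uninfused ones on normal sodium (5.97, 5.82 and 5.96 against 6.03, 6.43 and 5.997) and above them on low sodium (6.20, 6.20 and 6.19 against 6.18, 6.19 and 5.83). The interaction, the AngII difference in low sodium rats less that in normal sodium rats, was 0.3673 ± 0.20 by limma, with an unadjusted p of 0.0949 and an adjusted p of 0.857, so the difference between the diets did not pass the test. The nearest arrays of the groups were 6.190 and 6.194 on low sodium and 5.997 and 5.97 on normal sodium. Its other probes gave 0.20 and 0.32 for the same quantity.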

How the results depend on the processing

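With the slide as a replicate block the member medians were as without it (-0.13 for AngII on normal sodium, 0.14 for low sodium under AngII), 0 probes were called in any comparison, and 7 in place of 2 members were lower at an unadjusted p under 0.05 for AngII on normal sodium, where 3.56% in place of 3.53% of genes were. limma called no member under any alternative run. Of all probes, where 0 were called, AngII on normal sodium gave 6 after normexp, 5 in the authors' value table and 0 to 9 without 1 array or replicate number; low sodium without AngII gave 0 to 1 in the latter. Low sodium under AngII gave 3 after normexp, 1 after quantile normalization, 2 in the authors' table, 8 with array weights and 0 to 3 with arrays left out. Mean low sodium gave 4 after normexp, 1 with no filter on dim probes, 81 with array weights and 0 to 20 with arrays left out, and the F test gave 1 with no filter.

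Member medians with arrays or replicate numbers left out ran from -0.2332 to -0.0064 for AngII on normal sodium, 0.0182 to 0.2755 for the interaction (0.0589 without normal sodium replicate 2), -0.0049 to 0.0679 for AngII on low sodium, -0.126 to 0.0527 for low sodium without AngII, -0.1097 to 0.0189 for mean AngII and 0.0046 to 0.1024 for mean low sodium. For low sodium under AngII all 23 alternatives gave 0.0911 to 0.1841. Single members that changed sign, of those examined, were Rps16 (AngII on low sodium, -0.41 as the mean of its probes) and the dim Rps12l4, with 0.61 for low sodium under AngII, 0.35 for mean low sodium and 0.52 for the interaction in the authors' table, and 0.0332 and 0.0328 for the interaction after normexp and after quantile normalization. For AngII on normal sodium, Rplp2 gave 0.0099 after normexp and 0.0158 in the authors' table, and with arrays or replicate numbers left out Rplp1 ran from -0.1777 to 0.0459 and Rpl5 from -0.2772 to 0.0451. For low sodium under AngII, Rps2 gave 0.0663 as the mean of its probes and -0.1861 to 0.1137 with arrays left out.

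Of the paralogue differences, Rpl3l minus Rpl3 for low sodium was 0.27 after normexp, 0.30 in the authors' table and 0.2299 to 0.4713 with an array or replicate number left out, and for AngII -0.33 in the authors' table (exact permutation p = 0.04) and -0.3575 to -0.1862 with one left out. In the same way Rpl22l1 minus Rpl22 ran from -0.0763 to 0.2736 for AngII, turning without normal sodium replicate 1, and from 0.1819 to 0.5148 for low sodium. Rps27l minus Rps27 ran from -0.114 to 0.0606 for AngII, with 0.06 as the mean of probes, and from -0.3485 to -0.007 for low sodium. The causes were not tested. Signal over background limits Rpl39l1 and Rps12l4, and 3 arrays a group left a median standard error of 0.14 for a member's difference.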
